A study of Mus musculus with 6 samples.

Results

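The genes described here encode the cytoplasmic and nectin-based partners of cadherins in the adherens junction, together with catenin-related proteins. They are the catenin genes Ctnnb1, Ctnna1, Ctnna2, Ctnnd1 and Ctnnd2, the catenin-related genes Ctnnal1 and Ctnnbip1, the nectin genes Nectin1 and Nectin2, and Afdn, the gene of afadin. The 10 genes were chosen as a family, by their place in the junction or their relation to catenins, and are called partner genes for short. All 10 were measured among 19938 genes. Each was read by 1 probeset that the platform annotation assigns to a single gene. The values are array signals on the log2 scale, on which a difference of 1 is a doubling.

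Total RNA was taken from 6 lines of mouse induced pluripotent stem (iPS) cells. A line stands for 1 picked colony and gave 1 whole-transcript array. The 3 shECAD lines, clones 4, 8 and 9, came from OG2 mouse embryonic fibroblasts that had received Sox2, Klf4, Oct4 and c-Myc by retrovirus and, besides these, a short hairpin RNA (shRNA) that targets E-cadherin. The 3 control lines, clones 2, 3 and 4, received the same factors with an shRNA against luciferase, which mouse cells lack. All 6 lines thus carry the 4 reprogramming viruses and an shRNA virus, were moved to feeder cells on day 6, were picked on day 14 and were kept on feeders that were removed before extraction. Separate infections are not described, so a p-value here reflects only how much these clones differ, and n = 3 per group limits the precision.

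At an adherens junction, cadherins of neighbouring cells bind each other outside the cell, and their tails hold β-catenin and p120-catenin inside it. β-catenin in turn holds α-catenin, which binds actin filaments. Nectins form a parallel set of contacts and are tied to actin by afadin. β-catenin that is not held at the membrane is marked for destruction by a cytoplasmic complex, or enters the nucleus and acts with TCF and LEF factors as the effector of Wnt signalling. In mouse pluripotent cells E-cadherin is the main cadherin of compact colonies.

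The promoters of the family are shown first for a feature that the choice of genes did not use. Of the 10 genes, 8 were read from the RefSeq promoter table (build GRCm38.p6), with 11 annotated starts in all. Nectin1 had no entry there, and Ctnna1 was left out of this count. Over the 250 bases before the start, the richest promoter of each gene held between 16 CG dinucleotides (Nectin2) and 51 (Afdn), against a median of 6 over 32851 annotated starts, of which 25.4% held 16 or more. Each of the 8 genes thus had a CG-rich promoter among its starts, the neural catenin genes Ctnna2 (30) and Ctnnd2 (21) included. Other starts of Ctnnd1 and Ctnnbip1 held 3 and 8. The richest start of a gene is set here against all single starts, which favours genes with several starts. As examples, the bases before the first start of Ctnnb1, at chr9:120933150-120933399 on the plus strand, and of Ctnnd2, at chr15:30172284-30172533 on the plus strand, are given with each CG in capitals; they hold 35 and 21.
Ctnnb1: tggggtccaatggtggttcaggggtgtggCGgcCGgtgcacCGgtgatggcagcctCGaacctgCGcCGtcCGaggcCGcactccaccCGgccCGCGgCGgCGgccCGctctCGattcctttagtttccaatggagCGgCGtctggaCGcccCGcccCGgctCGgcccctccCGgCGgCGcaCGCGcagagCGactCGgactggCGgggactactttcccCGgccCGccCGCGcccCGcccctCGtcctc
Ctnnd2: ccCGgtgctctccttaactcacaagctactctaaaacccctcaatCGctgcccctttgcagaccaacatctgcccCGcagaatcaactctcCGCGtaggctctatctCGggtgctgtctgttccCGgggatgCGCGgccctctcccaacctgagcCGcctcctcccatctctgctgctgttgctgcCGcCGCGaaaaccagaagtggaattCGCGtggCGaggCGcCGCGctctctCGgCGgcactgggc

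The signal of Cdh1, the target of the hairpin, was 6.75, 6.92 and 7.81 in shECAD clones 4, 8 and 9, against 9.18, 9.60 and 9.07 in control clones 2, 3 and 4. Each shECAD clone lay below each control clone, clone 9 the least so. This is a log2 fold change of -2.13 ± 0.27 (SE; limma adjusted p = 0.00683), or 22.9% of the control signal. Against this fall, none of the 10 partner genes passed the test. In each of the 10 the values of the shECAD and control clones overlapped. Over all genes 3.12% passed at an adjusted p below 0.05 (1.9% higher and 1.23% lower in the shECAD clones), and in 23.6% the groups did not overlap. At an unadjusted p below 0.05 the count was also 0 of 10, where 18% of all genes passed. With 10 genes, 0 calls is near the share of 3.12%, so the lack of a call does not set the family apart.

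**Figure D1:**
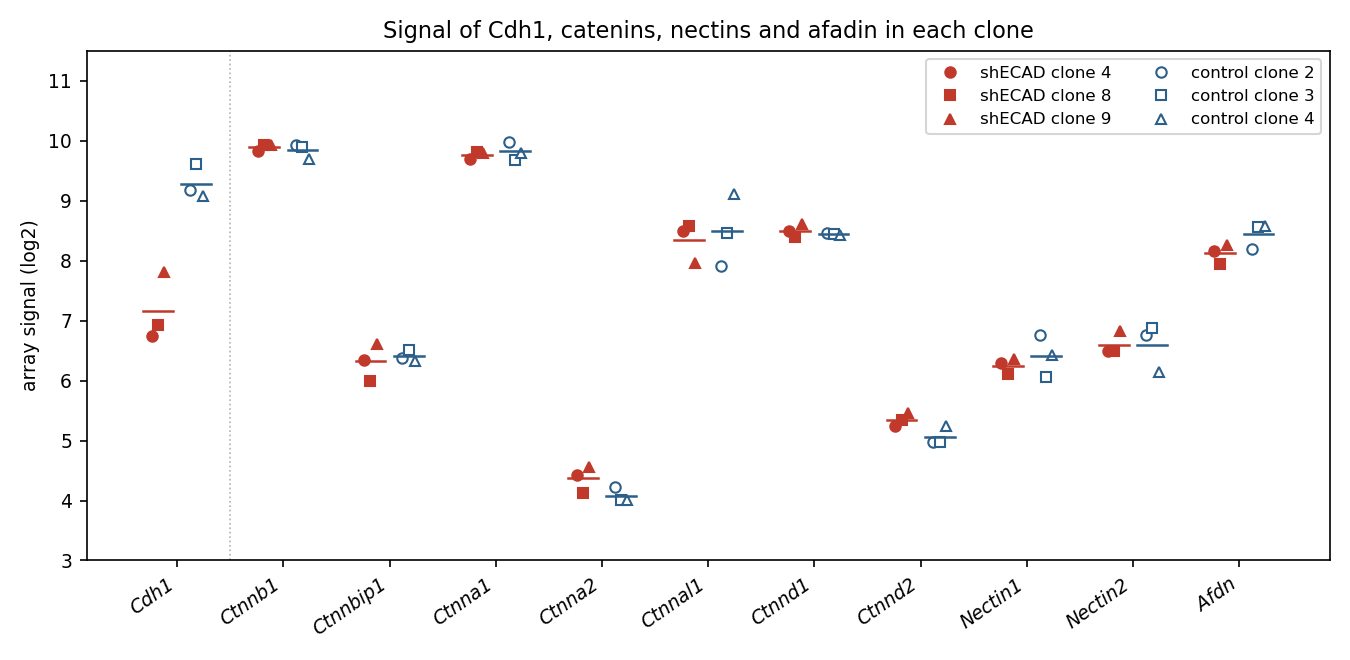
Array signal (log2) of Cdh1 and of the 10 partner genes in each clone, with filled red symbols for shECAD clones 4, 8 and 9, open blue symbols for control clones 2, 3 and 4, and a bar at each group mean. Cdh1 lies apart between the groups, at 7.16 in the shECAD and 9.28 in the control clones on average, while the values of each partner gene overlap; signals of different genes come from different probes and are not compared.

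The gene of β-catenin, Ctnnb1 (probeset 10590325), was among the genes with the narrowest spread over the clones. It read 9.83, 9.92 and 9.93 in shECAD clones 4, 8 and 9, against 9.93, 9.89 and 9.70 in control clones 2, 3 and 4. The values lay within 0.23 of each other, a narrower range than that of all but 2.69% of genes, and the lowest was a control clone. Its log2 fold change of 0.056 ± 0.15 (SE) had a 95% confidence interval from -0.27 to 0.38 (limma adjusted p = 0.879). On the linear scale this interval runs from 0.828 to 1.30 times the control signal. The sign of so small a change has no meaning here, since it turned to -0.032 when each array was centred on its median.

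Ctnnbip1 (probeset 10510473) encodes a small protein that binds β-catenin and keeps it from TCF factors. It read 6.34, 6.00 and 6.62 in shECAD clones 4, 8 and 9, against 6.38, 6.51 and 6.33 in control clones 2, 3 and 4. The shECAD clones held both the highest and the lowest value, so that their SD was 0.31 against 0.097 in the control clones. Its log2 fold change was -0.089 ± 0.18 (SE), with an interval from -0.49 to 0.31 (limma adjusted p = 0.84). Without shECAD clone 8 it was 0.072.

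Among the α-catenin genes, Ctnna1 (probeset 10454786), which encodes the α-catenin of epithelia, read 9.70, 9.81 and 9.80 in shECAD clones 4, 8 and 9, against 9.98, 9.68 and 9.80 in control clones 2, 3 and 4. The shECAD values fell inside the range of the control values. The log2 fold change was -0.052 ± 0.15 (SE), with an interval from -0.39 to 0.28 (limma adjusted p = 0.89), and it turned to 0.026 after quantile normalization. Ctnna2 (probeset 10545538), which encodes the α-catenin of neurons, read 4.43, 4.12 and 4.56 in the shECAD clones, against 4.23, 4.00 and 4.00 in control clones 2, 3 and 4. The 2 highest values were in shECAD clones 9 and 4, and shECAD clone 8 lay below control clone 2. Its log2 fold change of 0.29 ± 0.17 (SE; interval -0.08 to 0.66) did not pass the test (limma adjusted p = 0.396). Without shECAD clone 8 the interval ran from 0.020 to 0.81, with no call, and in the other fits it held 0. The signal lay near the 25th percentile of the gene values on each array (3.96 to 4.32), where an array tends to understate a change in abundance. Changes also depended on level. Their median was 0.025 over all genes and -0.092 over those at or above the median level. Dimmer genes thus tended to have higher changes than brighter genes. After quantile normalization the change of Ctnna2 was 0.19.

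Ctnnal1 (probeset 10513061), the gene of the α-catenin-like protein α-catulin, was the member that varied most between clones. It read 8.50, 8.58 and 7.96 in shECAD clones 4, 8 and 9, against 7.92, 8.47 and 9.11 in control clones 2, 3 and 4. Both the highest and the lowest value were those of control clones, and shECAD clone 9 lay beside control clone 2. The range of 1.19 was wider than that of 91.4% of genes, and the log2 fold change of -0.15 ± 0.28 (SE; interval -0.78 to 0.47) did not pass the test (limma adjusted p = 0.82). Without control clone 4 it was 0.15, and without control clone 2 it was -0.44. Of the 1718 genes with a range at least as wide, those with the most similar pattern over the 6 arrays were Slco4c1 (Pearson r = 0.95), Tfap2c (0.93), the gene of a transcription factor of the AP-2 family, and Pfkp (0.92), the gene of a phosphofructokinase. For Ctnnb1 they were Snora73a (0.99), Gas8 (0.98) and Ociad2 (0.98) among 19401 genes. With 6 arrays and so many genes these are descriptions only.

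Of the p120-catenin family, Ctnnd1 (probeset 10484402), whose product binds the cadherin tail next to the membrane and keeps cadherins at the cell surface, read 8.49, 8.39 and 8.61 in shECAD clones 4, 8 and 9, against 8.47, 8.44 and 8.44 in control clones 2, 3 and 4. The control values lay between the lowest and the second of the shECAD values. Its range over the 6 clones, 0.22, was narrower than that of all but 2.33% of genes. For Ctnnd1 the log2 fold change was 0.045 ± 0.15 (SE), with an interval from -0.28 to 0.37 (limma adjusted p = 0.904), and median centring turned it to -0.043. Ctnnd2 (probeset 10423471), which encodes the δ-catenin of neurons, read 5.24, 5.35 and 5.46 in the shECAD clones, against 4.97, 4.97 and 5.25 in control clones 2, 3 and 4. The groups touched at shECAD clone 4 and control clone 4. The log2 fold change of 0.29 ± 0.16 (SE; interval -0.06 to 0.63) did not pass the test (limma adjusted p = 0.37). It stayed positive, between 0.20 and 0.60, under each of the 14 alternatives in which it was tested. After quantile normalization it was 0.20. Like Ctnna2, Ctnnd2 lay below the median level of all genes, where changes tended to be higher than those of brighter genes. The part of this shift in the Ctnna2 and Ctnnd2 values was not tested. Beside the values of the neural catenin genes, 1 of 8 neural markers, the intermediate filament gene Nes, rose in the shECAD clones (log2 fold change 1.22, limma adjusted p = 0.0302). Over all genes 1.9% rose. Nes was not called without shECAD clone 8 (0.0675) or 9 (0.0518) or control clone 2 (0.0685) or 4 (0.0992). Nor was it called with every probeset on its own (limma adjusted p = 0.0686) or without variance moderation (0.261). The median log2 fold change of the 8 markers was 0.042 (-0.046 after median centring). Of the 8 changes 5 lay above 0, among them Ncam1 (0.61) and Map2 (0.30). The 3 below 0 were Tubb3 (-0.45), Pax6 (-0.24) and Sox1 (-0.12). The part of these markers in the Ctnna2 and Ctnnd2 values was not tested.

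Nectins are immunoglobulin-like adhesion proteins that bind nectins of the neighbouring cell. Nectin1 (probeset 10584615) read 6.29, 6.10 and 6.35 in shECAD clones 4, 8 and 9, against 6.76, 6.05 and 6.42 in control clones 2, 3 and 4. The shECAD values fell inside the control range, and the log2 fold change of -0.16 ± 0.19 (SE; interval -0.59 to 0.27) did not pass the test (limma adjusted p = 0.714). Without control clone 2 it was 0.012. Nectin2 (probeset 10560644) read 6.49, 6.49 and 6.82 in the shECAD clones, against 6.76, 6.88 and 6.14 in control clones 2, 3 and 4. Control clone 4 was the lowest and control clone 3 the highest of the 6. For Nectin2 the log2 fold change was 0.0091 ± 0.21 (SE), with an interval from -0.46 to 0.48 (limma adjusted p = 0.988), and median centring turned it to -0.079.

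Afdn (probeset 10441864), whose product ties nectins to actin, had the largest difference of the 10. It read 8.17, 7.94 and 8.27 in shECAD clones 4, 8 and 9, against 8.19, 8.56 and 8.58 in control clones 2, 3 and 4. The groups overlapped through control clone 2, which lay below shECAD clone 9. The log2 fold change was -0.32 ± 0.17 (SE), or 0.802 times the control signal, with an interval from 0.617 to 1.04 times, and it did not pass the test (limma adjusted p = 0.363). With 1 clone left out it ran from -0.44, without control clone 2, to -0.23, without shECAD clone 8. After quantile normalization it was -0.19, and Ctnnd2 (0.20) had the largest difference. Other partner genes were largest without shECAD clone 4 or control clone 4 (Ctnnd2), shECAD clone 8 (Ctnna2) or control clone 3 (Nectin1). With the fibroblast and feeder marker mean as a covariate the largest was Ctnnal1. The interval of Afdn lay below 0 after median centring (-0.79 to -0.017), with array weights (-0.71 to -0.011) and without control clone 2 (-0.85 to -0.041). None of these fits called Afdn, and in the other fits its interval held 0.

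**Figure D2:**
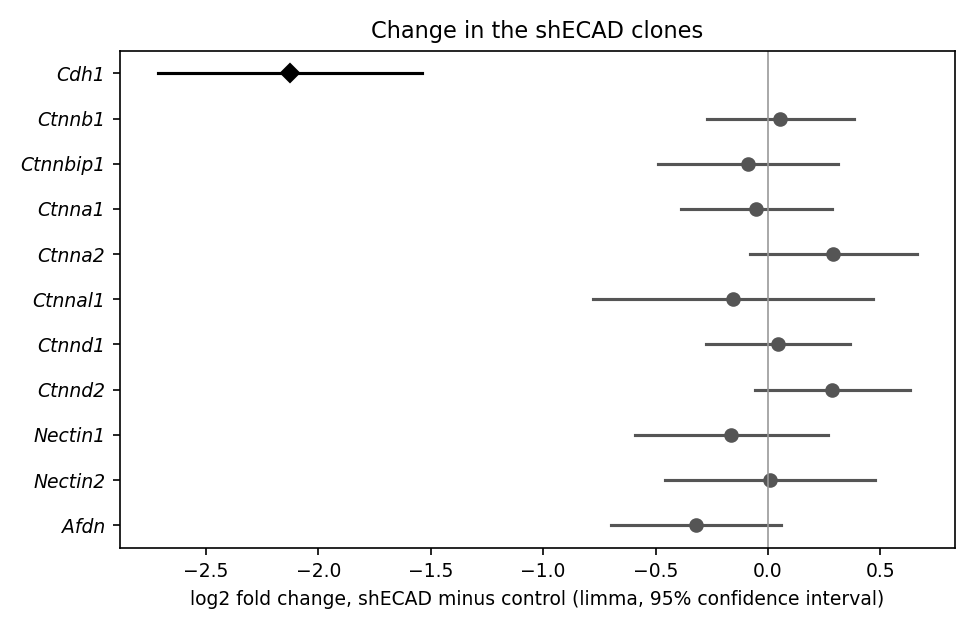
Log2 fold change of shECAD over control clones (points) with the 95% confidence interval of the limma fit (lines), for Cdh1 (black diamond) and the 10 partner genes. The interval of Cdh1 runs from -2.72 to -1.54, while those of the partners lie between -0.78 and 0.66 and each holds 0.

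Read together, the intervals bound the changes. For all 10 genes the 95% interval excluded a 2-fold change in either direction, as it did for 90.2% of all genes. For Ctnnal1 this did not hold without variance moderation (-1.25 to 0.94) or without control clone 2 (-1.02 to 0.13), and with the fibroblast and feeder marker mean as a covariate it held for 4 of the 10. The lowest of their lower bounds, -0.78 for Ctnnal1, lay above the upper bound of Cdh1, -1.54, as did the lower bounds of 99.3% of all genes. The intervals do not exclude changes as large as those estimated for Afdn, Ctnna2 or Ctnnd2. Of the 30 values of partner genes in shECAD clones, 19 lay within 0.2 of the control mean of the gene and 28 within 0.5, and the outer ones were Ctnnal1 in clone 9 (-0.54) and Afdn in clone 8 (-0.50). Cdh1 itself lay 2.54, 2.36 and 1.48 below its control mean in clones 4, 8 and 9. The median log2 fold change of the 10 genes was -0.021, with 5 positive and 5 negative, against a median of 0.025 over all genes. For the 8 partner genes at or above the median level it was -0.070, against -0.092 over all genes of that level.

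The change of each partner was also set against that of Cdh1 within each clone. The difference between the changes was between 1.81 (Afdn) and 2.42 (Ctnna2) on the log2 scale. For all 10 genes the Cdh1-to-partner difference was apart between shECAD and control clones. The two-sided exact permutation p was 0.1, the smallest that 3 clones against 3 allow. Cdh1 alone lay apart with the same permutation p of 0.1. The share of all genes that lie apart after subtraction of Cdh1 was not counted. A limma fit of the Cdh1-to-partner difference called all 10 genes, beside 99.8% of all genes. In both the permutation test and the fit, every gene is read against the same Cdh1 values. Both results therefore mostly restate the fall of Cdh1.

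The spread between clones differed from gene to gene. The range of 7 of the 10 genes lay below the median of all genes, 0.64, where a median leaves 5 of 10. Because bright probesets vary less, each gene was also placed among the 1000 genes nearest in signal, as a description. The share of those genes with a narrower range was 4.3% for Ctnnd1, 8.5% for Ctnnb1, 16.2% for Ctnna1, 19.7% for Ctnnd2, 32.7% for Ctnna2 and 45.3% for Ctnnbip1. It was 55.9% for Nectin1, 56.3% for Afdn, 56.7% for Nectin2 and 92.4% for Ctnnal1.

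**Figure D3:**
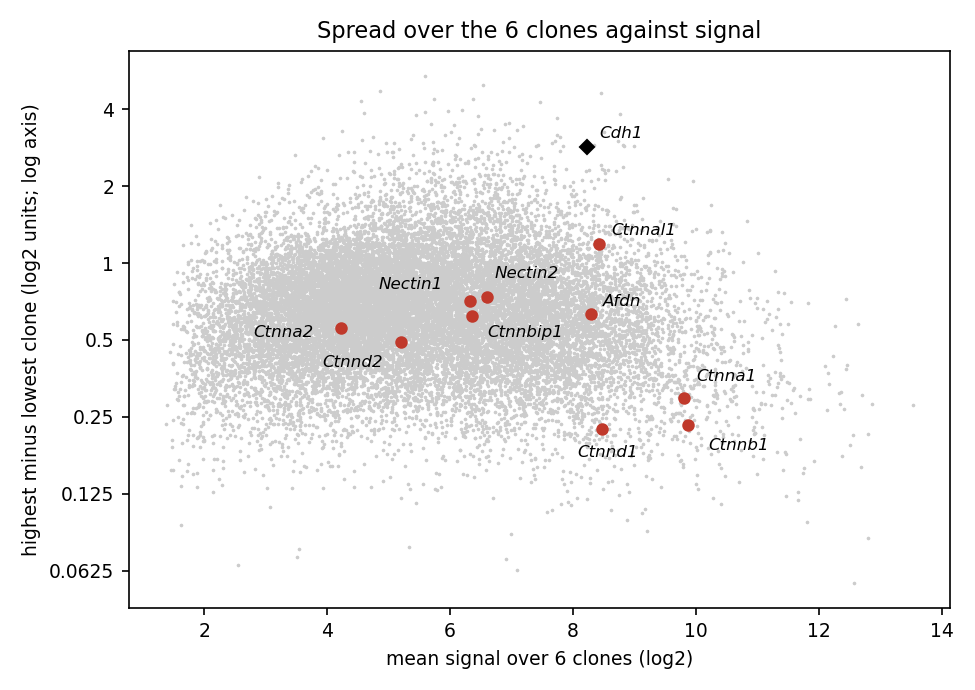
Difference between the highest and the lowest of the 6 clones (log2 units, on a log axis) against the mean signal over the 6 clones (log2), for all 19938 genes (grey), the 10 partner genes (red) and Cdh1 (black diamond). The ranges of the partner genes run from 0.22 for Ctnnd1 to 1.19 for Ctnnal1, and that of Cdh1 is 2.86.

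Several markers of fibroblasts and feeders and of simple epithelium moved between the groups, while the partner genes did not pass the test. Of 13 measured fibroblast and feeder markers 9 rose and 0 fell, where 1.9% of all genes rose and 1.23% fell. Col3a1 (0.82), Dcn (0.48), Pdgfra (0.38) and Lum (-0.23) were not called, and in each of them the groups overlapped. The mean signal of the 13 was 7.22 to 7.53 in the shECAD and 5.28 to 6.48 in the control clones. The 9 became 4 without shECAD clone 8, 6 with every probeset tested on its own, and 0 without variance moderation. Of 6 markers of simple epithelium 5 rose and 0 fell, beside the same shares of all genes. Epcam was not called (-0.15). The mean of the 6 was 7.59 to 8.55 in the shECAD and 6.34 to 6.56 in the control clones. The highest, 8.55, was shECAD clone 9. The 5 became 3 without control clone 3, without control clone 4 or with every probeset on its own, and 0 without variance moderation. Of the 8 pluripotency markers 0 passed limma's test and 3 had an unadjusted p below 0.05, where 18% of all genes did. These 3, Esrrb (-0.81), Tdgf1 (-0.50) and Utf1 (-0.46), were lower in the shECAD clones. Of the 8 changes 6 lay below 0 and 2 above. Their median was -0.25, and 0.0076 without shECAD clone 9. With an intensity trend and a robust variance prior, or with array weights, 1 marker was called lower. The mean signal of the 8 was 9.65 (clone 9) to 10.20 in the shECAD and 10.14 to 10.44 in the control clones. The mean of the 10 partner genes was 7.27 to 7.44 in the shECAD and 7.35 to 7.38 in the control clones. In bulk RNA, fewer cells of a type and less RNA per cell cannot be told apart, and the part of these markers in the partner genes' values was not tested.

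Further genes of the junction were taken from a list of partners and regulators other than the 10. Of 39 measured, 2 rose and 0 fell, where 1.9% of all genes rose and 1.23% fell. The groups did not overlap in 15 of the 39, against 23.6% of all genes. Whether the list differs from all genes was not tested. The median log2 fold change was 0.036 (0.11 after quantile normalization, -0.052 after median centring). Ptprm, the gene of a receptor phosphatase found at cell contacts, read 5.44, 5.76 and 5.57 in shECAD clones 4, 8 and 9, against 5.01, 4.47 and 4.30 in control clones 2, 3 and 4 (log2 fold change 0.999 ± 0.20 SE, limma adjusted p = 0.0302). Zyx, the gene of the actin-associated protein zyxin, read 7.03, 7.05 and 7.31 in the shECAD clones, against 6.60, 6.32 and 6.35 in control clones 2, 3 and 4 (0.71 ± 0.16, adjusted p = 0.0439). For both, every shECAD clone lay above every control clone. Zyx was not called in any fit that omitted a clone (the highest adjusted p was 0.162, without control clone 4) or after median centring (0.0553). Of the fits that omitted a clone, Ptprm was called only in the one without control clone 2, and its highest adjusted p was 0.119, without control clone 4.

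Among 27 measured genes of β-catenin destruction and of its nuclear partners, 0 passed limma's test at an adjusted p below 0.05 and 5 passed at an unadjusted p below 0.05, a share near the 18% of all genes. The median was -0.059 (0.042 after quantile normalization, -0.15 after median centring). The largest differences were in Zbtb33, the gene of the p120-catenin-binding repressor Kaiso (log2 fold change 0.55 ± 0.15 SE, limma adjusted p = 0.0851), Chd8, a chromatin remodeller gene whose product binds β-catenin (-0.53 ± 0.18, 0.139), and Apc2, a relative of the destruction complex scaffold gene Apc (0.52 ± 0.16, 0.107). In all 3 the groups did not overlap, as in 23.6% of all genes. Zbtb33 was called after quantile normalization (limma adjusted p = 0.0471), among brighter genes alone (0.0468) and with array weights (0.0341).

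Of 14 measured genes known as targets of β-catenin and TCF factors, 1 fell and 0 rose, where 1.23% of all genes fell and 1.9% rose. The one that fell was Notum, the gene of a secreted enzyme that inactivates Wnt proteins, which read 5.74, 5.55 and 5.77 in shECAD clones 4, 8 and 9, against 6.73, 6.28 and 6.65 in control clones 2, 3 and 4 (log2 fold change -0.87 ± 0.17 SE, limma adjusted p = 0.0278). All shECAD clones lay below all control clones. Of the fits that omitted a clone, the one without control clone 3 still called it, and the highest adjusted p was 0.112, without control clone 4. The median of the list was 0.26 (0.13 without shECAD clone 9, 0.17 after median centring and 0.066 with the fibroblast and feeder marker mean as a covariate). Of the 14 changes 11 lay above 0, as did 53.7% of those of all genes.

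Some of the cadherins that catenins bind did change. Of 18 measured classical cadherin genes 2 rose and 1, Cdh1, the target of the hairpin, fell, where 1.9% of all genes rose and 1.23% fell. The median of the 18 was 0.29. Only 5 of the 18 lay at or above the median level of all genes, and their median was 0.033. Cdh2, the gene of N-cadherin, read 5.73, 5.65 and 6.16 in shECAD clones 4, 8 and 9, against 4.74, 5.16 and 4.77 in control clones 2, 3 and 4 (log2 fold change 0.95 ± 0.19 SE, limma adjusted p = 0.0298). Cdh11, a cadherin gene of mesenchyme and one of the fibroblast markers, read 8.43, 8.52 and 8.13 in the shECAD clones, against 7.03, 6.59 and 5.65 in control clones 2, 3 and 4 (1.94 ± 0.30, adjusted p = 0.012). Both were higher in every shECAD clone than in any control clone. Of the fits that omitted a clone, only the one without control clone 3 called Cdh2, whose highest adjusted p was 0.116 without control clone 4. Cdh11 missed its call in the fit without shECAD clone 8 (0.0527). With the fibroblast and feeder marker mean, which includes Cdh11, as a covariate, or without variance moderation, limma called none of Ptprm, Zyx, Notum, Cdh2 and Cdh11. With every probeset tested on its own it called Cdh11 alone of these 5.

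**Figure D4:**
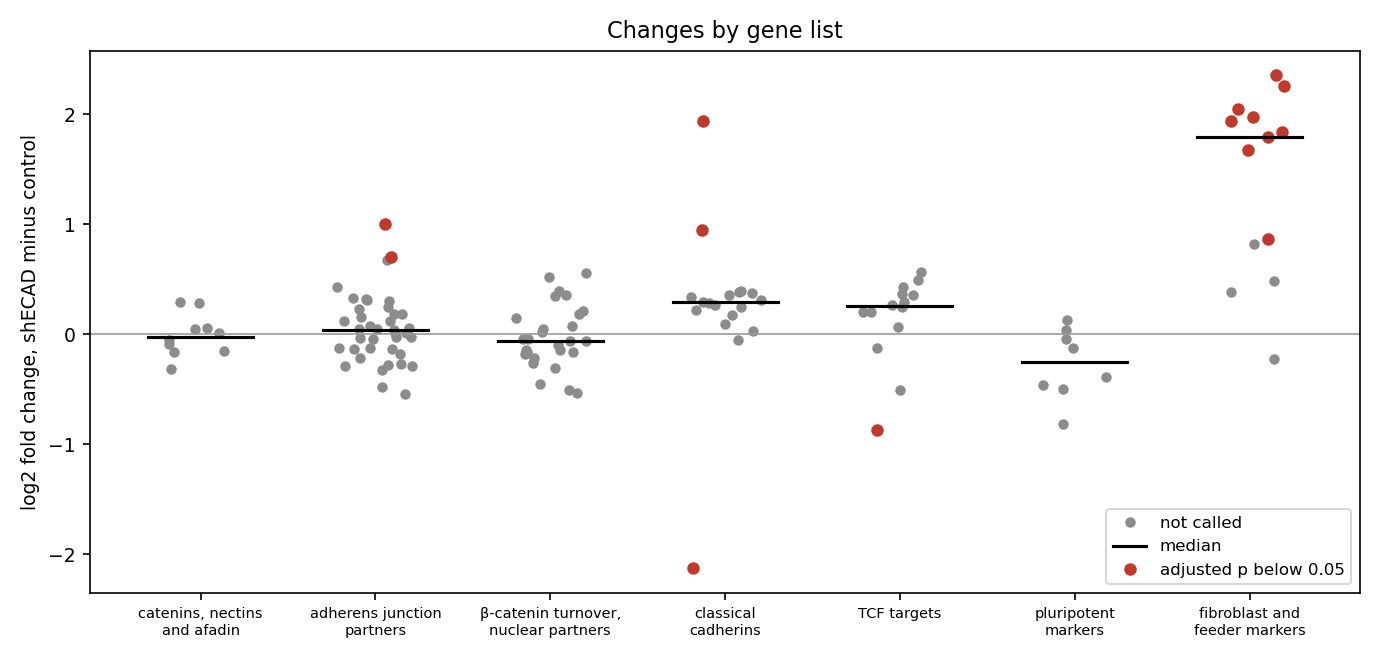
Log2 fold change of shECAD over control clones for each measured gene of 7 lists (points; red at a limma adjusted p below 0.05) with the median of each list (black bar). The 10 partner genes lie between -0.32 and 0.29, the cadherins hold both Cdh1 at -2.13 and Cdh11 at 1.94, and the fibroblast and feeder markers have a median of 1.79.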

How the data were processed

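The authors' deposited table holds log2 values for 28853 probesets, for which the submitters' processing notes name RMA and Partek. Neither a version nor a build is stated in the sources used here. Values were used as deposited. Array medians were 5.11 to 5.30; the files hold no detection calls. Of 21789 probesets with 1 annotated gene symbol, 21698 matched a RefSeq table (GRCm38.p6, for names) by Entrez identifier. The brightest probeset stood for each of 19938 genes; each partner gene had 1.

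Groups were compared with limma 3.58.1 (R 4.3.3; lmFit, eBayes, each clone 1 replicate, no covariate), with Benjamini-Hochberg adjustment over all genes and calls below 0.05; the fit was tested on simulated data. The exact permutation test ran over 20 labellings. Named genes are Cdh1, the 10 partners, in each list up to 5 calls by size or else the 3 largest changes, and 3 genes most correlated with Ctnnb1 and with the widest-ranging partner. The genes and lists were chosen with earlier results of these data known. Alternatives covered centring, quantile normalization, dim genes, probesets, variance models, a fibroblast covariate and leaving out each clone.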

Additional observations from a re-analysis of the deposited data

How the results depend on the processing

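No partner gene was called under any of the 15 alternative fits, of which the one of brighter genes alone held 8 of the 10, or at an adjusted p below 0.1. The groups share only the clone number 4. No paired analysis was possible because that number names separate clones and fewer than 2 numbers are shared. The median log2 fold change of the 10 genes, -0.021, was -0.109 after median centring, 0.057 after quantile normalization and 0.053 without shECAD clone 8; with 1 clone left out it ran from -0.040 to 0.053. Signs of single genes turned as follows, with none called. With the fibroblast and feeder marker mean as a covariate, which lies apart between the groups, the changes were 0.14 for Afdn, 1.003 for Ctnnal1, -0.22 for Ctnnb1 and -0.68 for Nectin2. Median centring gave -0.032 for Ctnnb1, -0.043 for Ctnnd1 and -0.079 for Nectin2, and quantile normalization 0.026 for Ctnna1. With 1 clone left out the changes ran from -0.12 to 0.028 for Ctnna1, -0.44 to 0.15 for Ctnnal1, -0.015 to 0.10 for Ctnnb1, -0.24 to 0.072 for Ctnnbip1, -0.013 to 0.099 for Ctnnd1, -0.34 to 0.012 for Nectin1 and -0.22 to 0.15 for Nectin2. Cdh1 had the same change without variance moderation, -2.13 (limma adjusted p = 0.194), and -2.24 with the marker covariate (adjusted p = 0.9997). The genes called over the whole array, 623, were 241 with every probeset on its own, 1067 with array weights, whose estimate stopped before convergence, 3 without moderation, 0 with the covariate, 1278 at an adjusted p below 0.1, and 146 (without control clone 4) to 543 with 1 clone left out. The split of 378 higher and 245 lower became 303 and 377 after median centring and 379 and 402 among brighter genes. The count of partner genes whose change differed from that of Cdh1 was 10 under each alternative run, which mostly restates the fall of Cdh1. The covariate fit's median SE over all genes was 0.397, against 0.176. Low signal limits Ctnna2 in particular.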
